A study of Mus musculus with 18 samples.

Results

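The genes described are 6 transcription factors that define or repress the subtypes of small cell lung cancer, Neurod1, Atoh1, Insm1, Pou2f3, Rest and Hes1, followed tumor by tumor. They were taken by name, with no use of their measured values, and are 6 of the 46078 genes of the RNA-seq count table, of which 4 had enough counts for the test. With them go the ATAC-seq peaks within 50000 bp of each gene, 69 of the 111664 peaks of the peak table. ATAC-seq maps open chromatin by the DNA that a transposase can reach. The libraries come from lung tumors of mice of 3 genotypes, with 3 libraries of each genotype in each assay, 18 in all, and the labels state 3 independent animals per genotype. All mice carry floxed alleles of Rb1, p53 and another retinoblastoma family gene, which is Rbl1 in the labels and Rbl2 in the study's Results, and these are called TKO. CARM1 knockout tumors come from TKO mice that carry a floxed Carm1 as well. NFIB mutant tumors come from TKO mice with the Nfib R388K change, which puts lysine in place of the arginine that the enzyme CARM1 methylates. An adenovirus with Cre was given into the trachea at 8 weeks of age, and cells were collected 28 weeks after it. No promoter restricted to a cell type is stated for this virus, so the cell of origin is not set by the design. The mice were of a mixed C57BL/6 and FVB129/N background. The Methods describe sorting for tdTomato, which Cre switches on from the Rosa26 locus, while the Results speak of tumor biopsies and the ATAC-seq Methods also of cell lines. The comparisons ask what loss of CARM1, or of its methylation site on NFIB, does to these tumors.

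Small cell lung cancer is usually neuroendocrine, and its subtypes are named after the transcription factor that leads them, such as NEUROD1, POU2F3 (a tuft-cell-like subtype) or ATOH1. INSM1 is a zinc finger protein of neuroendocrine cells. REST silences neuronal genes outside the nervous system, and HES1, a target of Notch signalling, represses proneural genes, so both stand on the side of the non-neuroendocrine state.

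RNA-seq libraries held between 15848866 and 20915057 counts on genes, and ATAC-seq libraries between 26917178 and 47653979 counts on peaks. Values per library are CPM, the counts scaled to library size with TMM factors, and levels of different genes are compared only as TPM, which also divide by gene length. A library without a count for a gene allows up to 3 counts, which is 0.131 to 0.203 CPM in RNA-seq and 0.0576 to 0.127 CPM in ATAC-seq. Such limits cover counting error only, since PCR copies are not independent molecules. Differences were tested with edgeR's quasi-likelihood test and Benjamini-Hochberg adjustment over all 15514 genes or all 111116 peaks that had enough counts. Genes were called at an adjusted p under 0.1 where the log2 fold change was 0.8 or more in size, and peaks where it was 0.5 or more. Both mutants were compared with the same 3 TKO libraries per assay, so their values are given side by side and not as independent results. Over all genes tested the log2 fold changes had a median of -0.03 in the CARM1 knockouts and -0.05 in the NFIB mutants, and it was -0.30 and -0.37 when libraries were scaled by total counts alone. Of the genes called, 52.9 and 48.7% were higher, against 39.4 and 35.8% with that scaling. For peaks the medians were 0.22 and 0.22, with 0.79 and 0.79 under total counts, 0.61 and 0.70 under scaling by start-site peaks of evenly expressed genes, and 0.04 and 0.07 with DESeq2 size factors. Of the peaks called, 54.4 and 53.6% were higher, against 65.9 and 64.3% under total counts and 62.6 and 62.8% under start-site scaling.

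The targeted genes were read first. Carm1 had 97.7, 103 and 44.5 CPM in TKO, 63.4, 79.1 and 50.8 in the CARM1 knockouts and 100, 104 and 102 in the NFIB mutants. Its values in the knockout libraries overlapped those in TKO, and gene counts sum over all exons, so neither the exons lost to Cre nor a point mutation can be read from them. Nfib had 420, 580 and 571 CPM in TKO, 74.5, 216 and 87.2 in the CARM1 knockouts and 105, 83.3 and 91.4 in the NFIB mutants. All 6 mutant libraries lay below all TKO libraries for Nfib, which was called lower in both mutants (log2 fold changes -2.06 and -2.49, adjusted p = 0.00799 and 0.00325). Without CARM1 knockout replicate 2 the former was -2.69. Rb1 had 60.4 to 92.3 CPM in TKO and 8.58 to 48.7 CPM in the mutants, and Trp53 had 9.62 to 12.4 and 3.70 to 7.86 CPM. Rb1 was called lower in both mutants (log2 fold changes -1.32 and -1.64, adjusted p = 0.0932 and 0.0442), and Trp53 in neither. The Rb1 call in the CARM1 knockouts was lost without any TKO library, CARM1 knockout replicate 1 or 2 or NFIB mutant replicate 1 or 2. That in the NFIB mutants was lost without TKO replicate 1 (-1.46). For Rbl1 the values were 12.9, 1.49 and 67.8 CPM in TKO, 53.5, 50.6 and 55.4 in the CARM1 knockouts and 55.4, 1.79 and 54.7 in the NFIB mutants. TKO replicate 2 and NFIB mutant replicate 2 thus held little Rbl1 RNA beside the rest. Rbl2 had 16.4 to 24.3 CPM in TKO, 8.17 to 13.1 CPM in the CARM1 knockouts and 9.09 to 17.1 CPM in the NFIB mutants. It was called lower in the CARM1 knockouts (log2 fold change -0.89, adjusted p = 0.0707). That call was lost without TKO replicate 1 (-0.69) or 2 (-0.95) or CARM1 knockout replicate 1 (-0.87) or 2 (-0.73).

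The labels call the samples small cell lung cancer cells, and the neuroendocrine markers were checked against that. Chga, a protein of secretory granules, had 336, 125 and 334 CPM in TKO, 0.203, 0.525 and 211 in the CARM1 knockouts and 1.34, 0.247 and 0.191 in the NFIB mutants. The TKO libraries and CARM1 knockout replicate 3 thus held neuroendocrine RNA, and the other 5 mutant libraries were near 0 for this defining marker. Summed over the 15 neuroendocrine markers, TKO held 1925, 1739 and 4497 CPM, CARM1 knockout 72.5, 195 and 2112 CPM, and NFIB mutant libraries 122, 60.1 and 71.0 CPM. Scg2 was the most abundant of them, mainly through 1844 CPM in TKO replicate 3. The test called 3 of the 15 lower in the CARM1 knockouts and 13 of the 15 lower in the NFIB mutants, and none of them higher, with median log2 fold changes of -2.36 and -8.11 over the list. Of all genes tested 18.3 and 23.5% were lower, so the former count is near that share and the latter far above it. Without CARM1 knockout replicate 3 the first count was 14, while it was 0 without TKO replicate 1 or CARM1 knockout replicate 1 or 2, 1 without TKO replicate 2 or 3, and 2 without any NFIB mutant library. Snap25, a synaptic fusion protein, had 104, 136 and 480 CPM in TKO, 0.0678, 0 and 24.3 in the CARM1 knockouts and 1.95, 0.493 and 0.127 in the NFIB mutants. Uchl1, a deubiquitinase of neurons and neuroendocrine cells, had 414, 387 and 425 CPM, then 24.1, 33.4 and 181 CPM, then 11.7, 17.9 and 3.37 CPM. For both of these genes all mutant libraries lay below all TKO libraries, with replicate 3 the highest of the CARM1 knockout tumors. In bulk libraries such as these, fewer cells of a type and less RNA per cell cannot be told apart.

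Markers of the non-neuroendocrine subtype and of other cells moved with genotype as well. Yap1, a coactivator of the Hippo pathway, had 7.01, 3.67 and 2.84 CPM in TKO, 162, 197 and 106 in the CARM1 knockouts and 193, 129 and 213 in the NFIB mutants. Of the 13 genes of its list, 12 were called higher in each mutant and none lower, with median log2 fold changes of 4.99 and 4.60, where 20.5 and 22.3% of all genes were higher, and the count was 12 with each library left out in turn. The list summed to 284 to 606 CPM in TKO and 5020 to 9399 CPM in the mutants, and Vim was its most abundant gene. Axl, a receptor kinase, rose from 1.51 to 38.6 CPM in TKO to 772 to 1831 CPM in the mutants, and Ccn1, a secreted YAP1 target, from 1.29 to 9.99 CPM to 151 to 679 CPM, with no overlap of TKO and mutant libraries. The 6 fibroblast markers summed to 11.1, 26.6 and 63.4 CPM in TKO, 17024, 14457 and 25795 in the CARM1 knockouts and 12573, 9479 and 15915 in the NFIB mutants. Col1a1, their most abundant gene, had 0.288, 3.85 and 0.354 CPM in TKO and 2372 to 10055 CPM in the mutants, and Col1a2 had 0 to 5.03 CPM and 2589 to 8270 CPM. The test called 6 of 6 fibroblast markers higher in the CARM1 knockouts and 5 of 6 in the NFIB mutants, with medians of 10.01 and 8.53, next to the same shares of all genes. All 6 mutant libraries were thus high in collagen RNA, CARM1 knockout replicate 3 included.

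Leukocyte markers varied among tumors of 1 genotype. The 12 markers summed to 61.1, 5.6 and 4.25 CPM in TKO, 1168, 257 and 2967 in the CARM1 knockouts and 542, 1085 and 81.4 in the NFIB mutants. Over all libraries together Lyz2 was the most abundant, mainly through 1967 CPM in CARM1 knockout replicate 3. It had 404, 96.2 and 0.953 CPM in NFIB mutant replicates 1, 2 and 3, so Lyz2 made up most of the 542 CPM of replicate 1. Ptprc, the defining marker, had 1.49, 0 and 0.133 CPM, then 29.1, 1.87 and 57.7 CPM, then 0.365, 25.8 and 0.191 CPM, while Cd3e was at 0 in all libraries. NFIB mutant replicates 1 and 3 were thus near the TKO level for Ptprc. Of the 10 leukocyte markers tested, 8 were called higher in the CARM1 knockouts and 3 in the NFIB mutants, with medians of 6.35 and 3.80, next to 20.5 and 22.3% of all genes. In the CARM1 knockouts the count was 2 without TKO replicate 2, 4 without TKO replicate 3 or CARM1 knockout replicate 1 or 3, and 6 to 9 otherwise. Among the NFIB mutants it was 1 without NFIB mutant replicate 2, 5 without NFIB mutant replicate 1, and 2 to 4 otherwise. Csf1r, a macrophage receptor, had 0.0437 to 2.55 CPM in TKO and 8.34 to 223 CPM in the mutants, and Cd14, of monocytes, 0 to 3.12 and 54.3 to 549 CPM. Both were called higher in each mutant, Csf1r in the NFIB mutants not without replicate 2. Lung epithelium markers summed to 22.4 to 59.1 CPM in TKO, 6.51, 33.4 and 436 in the CARM1 knockouts and 2720, 299 and 5.91 in the NFIB mutants. Over all libraries together Sftpb was their most abundant gene, mainly through 1737 CPM in NFIB mutant replicate 1, and it had 0.0875 to 0.769 CPM in TKO. Epcam had 12.9, 8.97 and 1.42 CPM in TKO, 0, 0 and 101 in the CARM1 knockouts and 6.08, 0.247 and 0 in the NFIB mutants, and Scgb3a2 was at 0 in all. Of 9 lung epithelium genes tested, 0 were higher (1 without TKO replicate 3 or NFIB mutant replicate 3) and 1 lower in the CARM1 knockouts, and 4 higher and 1 lower in the NFIB mutants, with medians of 0.08 and 3.73, next to 20.5 and 18.3% and 22.3 and 23.5% of all genes. The 4 became 1 without NFIB mutant replicate 1 or TKO replicate 2, and 2 without NFIB mutant replicate 2 or TKO replicate 1 or 3, and the numbers lower were 1 or 2 in all these fits. Foxj1, of ciliated cells, had 2.26 to 12.9 CPM in TKO and 0.0616 to 0.787 CPM in the mutants. The 6 endothelium markers summed to 17.4 CPM or less in every library, with Emcn and Cldn5 at 0. Over all libraries together Kdr was the most abundant, mainly through 16.2 CPM in TKO replicate 3 and 10.7 CPM in CARM1 knockout replicate 3. Of 4 endothelium markers tested 1 (Cdh5, at 0 to 0.0480 CPM in TKO and 0.169 to 2.77 CPM in the mutants) was called higher in each mutant and 0 and 1 lower. Their medians were 0.68 and -1.15, and 4 genes are too few to set beside the shares of all genes. The gene lower in the NFIB mutants was Kdr, not without TKO replicate 3 or NFIB mutant replicate 1 or 3, and the Cdh5 call in the CARM1 knockouts was lost without TKO replicate 2 or 3 or CARM1 knockout replicate 2. The part of these cell types in the results on the regulators was not tested.

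**Figure D1:**
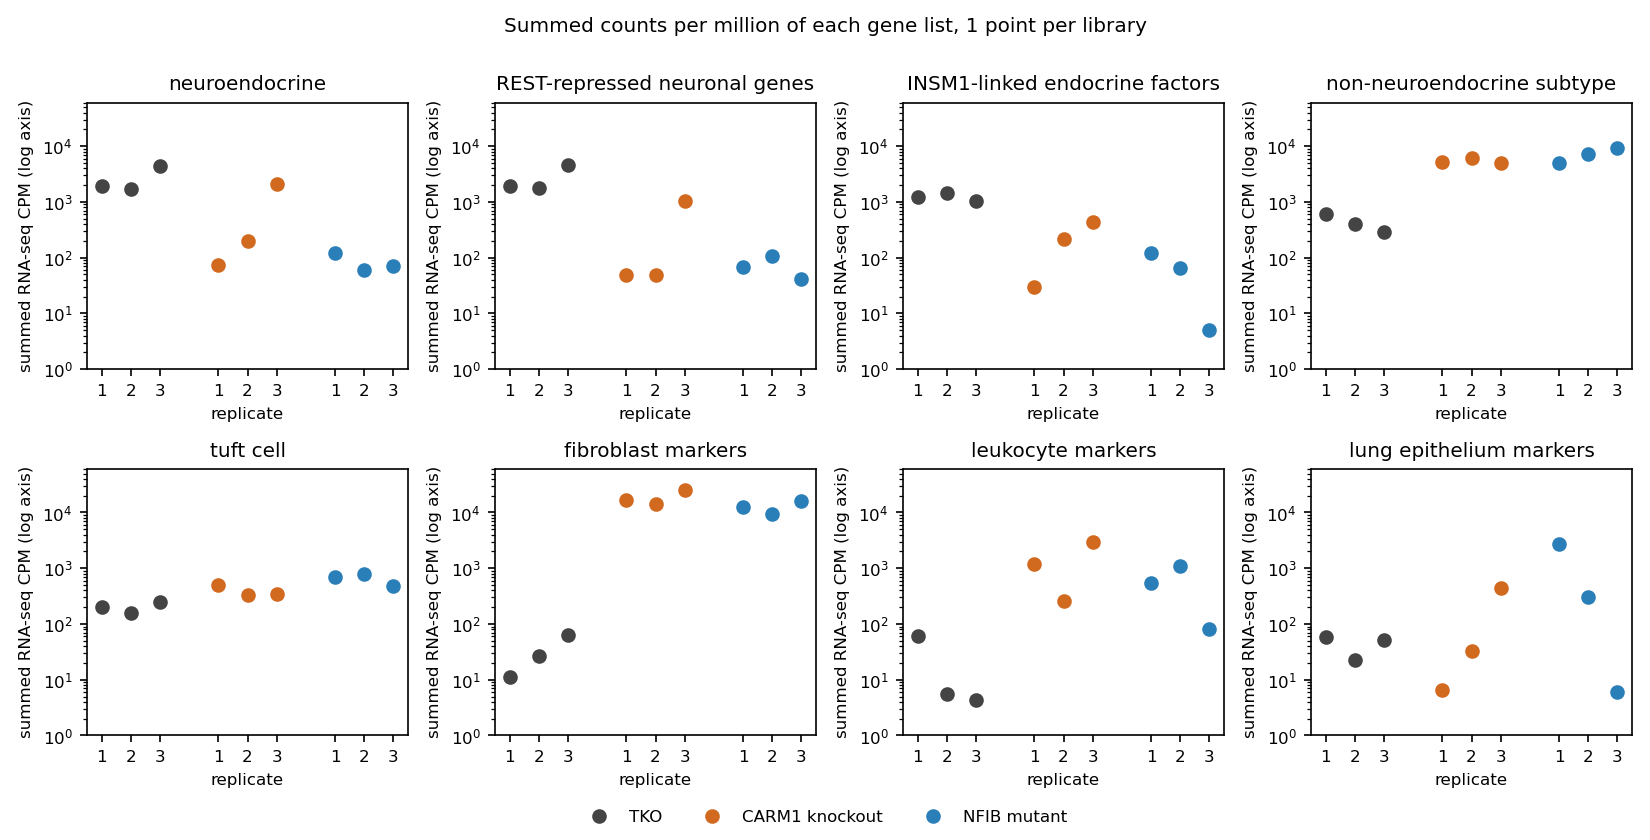
Summed RNA-seq CPM (log axis) of 8 gene lists, with 1 point per library, by genotype (black TKO, orange CARM1 knockout, blue NFIB mutant) and replicate number. Among the mutants, CARM1 knockout replicate 3 stands apart with 2112 CPM of neuroendocrine markers, while all 6 mutant libraries hold at least 9479 CPM of fibroblast markers.

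On the scale of TPM, Insm1 had the highest level of the 6 regulators in TKO tumors (346, 407 and 352 TPM). Hes1 had 14.1, 89.8 and 12.2 TPM, Neurod1 2.72, 14 and 4.95 TPM and Rest 2.42, 3.59 and 3.35 TPM, so in each of the 3 libraries Hes1 lay above Neurod1 and Neurod1 above Rest. Pou2f3 was at 0.0650 to 0.925 TPM and Atoh1 at 0 to 0.0898 TPM. Among the CARM1 knockouts Insm1 had 0, 4.55 and 94.3 TPM, Hes1 12.5, 34.7 and 41.2 TPM and Rest 26.7, 26.7 and 24.1 TPM, and these 3 genes overlapped. In the NFIB mutants Rest had 26.1, 27.2 and 19.0 TPM, Hes1 37.0, 7.72 and 15.4 TPM and Insm1 0.834, 0.428 and 0 TPM, so Rest and Hes1 overlapped and Insm1 lay below both. Neurod1 had no count in any mutant library.

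Of the 6 regulators, 4 were tested. In the CARM1 knockouts 1 was called higher (Rest), where 20.5% of all genes tested were higher, and 1 lower (Neurod1), where 18.3% were lower. Among the NFIB mutants 1 was called higher (Rest), against a background of 22.3%, and 2 lower (Neurod1 and Insm1), against 23.5%. With so few genes these counts are not set apart from that background. Without CARM1 knockout replicate 3, Insm1 was called lower in the CARM1 knockouts too, which made 3 regulators called there.

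**Figure D2:**
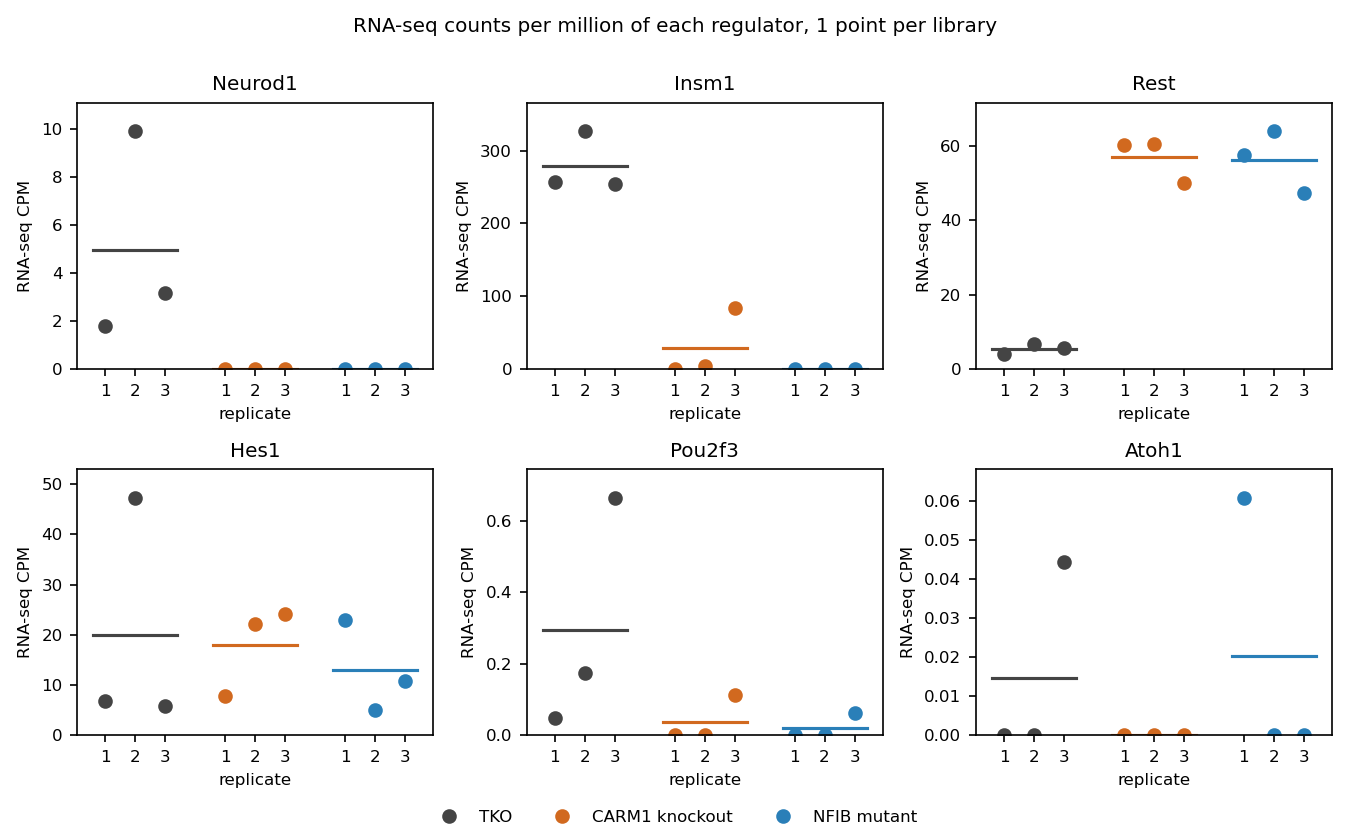
RNA-seq CPM of each regulator on a linear axis, with 1 point per library by genotype and replicate number and a line at the mean of the 3 libraries. Neurod1 is at 0 in all 6 mutant libraries, Insm1 keeps 83.9 CPM in CARM1 knockout replicate 3, and Rest lies above 47 CPM in all mutant libraries and under 7 CPM in TKO.

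Neurod1 (ENSMUSG00000034701), on the minus strand at chr2:79452521-79456751 of GRCm38, codes for a proneural basic helix-loop-helix factor. It had 1.78, 9.89 and 3.15 CPM in TKO libraries (37, 226 and 71 counts) and 0 counts in each of the 6 mutant libraries. TKO replicate 2 was the highest of the 3 TKO tumors, and no mutant library overlapped any of them. Against the limit of 3 counts per library, Neurod1 was lower by at least 27.1-fold in the CARM1 knockouts and at least 26.5-fold in the NFIB mutants, and by at least 13.5-fold and 13.2-fold without TKO replicate 2. It was called lower in both mutants (edgeR quasi-likelihood test with Benjamini-Hochberg adjustment, adjusted p = 0.0162 and 0.0135). The gene lies within Cerkl, which had no count in TKO and a mean of 0.0562 CPM or less in the mutants, and overlaps the noncoding gene Gm26755, which had no counts. Reads that htseq-count could not assign to 1 gene, 3.84 to 4.50% per library, are outside these counts.

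The start of Neurod1 lay in an open region of the TKO tumors. This peak (chr2:79456347-79457329, Neurod1 peak 3 of the plot of peaks by distance) covers the start of Cerkl as well. It had 5.96, 18.8 and 5.54 CPM in TKO, 0.491, 0.211 and 0.677 in the CARM1 knockouts and 0.448, 0.385 and 0.294 in the NFIB mutants. Replicate 2 was again the highest of the TKO tumors, and all 6 mutant libraries lay far below. Its log2 fold changes were -4.46 (SE, the standard error, 0.66, adjusted p = 0.000331) and -4.74 (SE 0.67, adjusted p = 0.000227), and -3.64 and -3.93 without TKO replicate 2. The promoter inside this peak is shown because it is where the RNA and the accessibility of Neurod1 fell together, as the RefSeq sequence of 300 bases around the start (GRCm38.p6, chr2:79456587-79456886, minus strand), with capitals for matches to the E-box CANNTG or the NFI site TTGGC on either strand. E-boxes are the core bound by basic helix-loop-helix proteins, and TTGGC the core of the sites of the NFI family.
Neurod1: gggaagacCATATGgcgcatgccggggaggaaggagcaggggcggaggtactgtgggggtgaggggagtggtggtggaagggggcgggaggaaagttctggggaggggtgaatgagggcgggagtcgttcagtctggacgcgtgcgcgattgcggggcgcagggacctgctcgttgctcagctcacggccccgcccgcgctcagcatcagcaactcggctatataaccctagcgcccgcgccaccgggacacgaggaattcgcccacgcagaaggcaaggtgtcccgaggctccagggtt
It held 1 E-box (CATATG) and no NFI site, while the central 300 bases of the whole peak held 3 and 1. Of all 32851 promoters of this length, 72.3% held an E-box and 46.7% the NFI site.

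In TKO the other 4 peaks near Neurod1 were smaller than the peak at its start. A peak 27.9 kb after the start had means of 0.624 CPM in TKO, 1.13 in the CARM1 knockouts and 1.86 in the NFIB mutants. It was called higher in the NFIB mutants (log2 fold change 1.57, adjusted p = 0.0165) and not in the CARM1 knockouts (0.84). The peak inside the gene, 2.48 kb after the start (chr2:79453878-79454666), had 2.74, 9.89 and 0.549 CPM in TKO and 1.03 to 2.73 CPM in the mutants, with overlapping genotypes. It was called lower in the NFIB mutants alone (log2 fold change -1.87, adjusted p = 0.0525), which rests on TKO replicate 2 (-0.46 without it), and not without NFIB mutant replicate 2 (-1.77) or 3 (-1.86) either. Without TKO replicate 3 it was called lower in the CARM1 knockouts too (-1.57, from -1.06 with all libraries). A peak 40.3 kb before the start had 0 CPM in all TKO libraries, 1.83, 0.422 and 0.242 in the CARM1 knockouts and 0.239, 0.409 and 0.746 in the NFIB mutants, and was called higher in each mutant. Over the 15 other genes of the proneural family, only 3 had enough counts, and 0 were called in the CARM1 knockouts. There 1 was higher without TKO replicate 3, and 1 was lower without CARM1 knockout replicate 3. In the NFIB mutants 1 was called lower, and 1 was lower with each library left out and under total counts. Bhlhe22 was called higher there, a call that was lost in 6 of the 9 fits with a library left out and under total counts. The list's median log2 fold changes were 0.73 and 0.57, and 3 genes are too few to set beside the shares of all genes. Neurod4, a relative of Neurod1, had 0.288, 0.131 and 9.39 CPM in TKO and no count in the mutants, and Neurod2 and Olig2 had none anywhere. The genes most like Neurod1 over the 9 libraries were Cbs, Slc38a3 and Fgfr3, by the root mean square difference of centred log2 CPM (0.570, 0.694 and 0.781 among 11481 candidates). Cbs had 8.98, 43.3 and 28.9 CPM in TKO and 0.292 to 1.22 CPM in the mutants.

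Atoh1 (ENSMUSG00000073043, chr6:64729125-64731245, plus strand) codes for a proneural factor of hair cells, Merkel cells and cerebellar granule cells. Its RNA was at 0, 0 and 1 count in TKO, 0 counts in the 3 CARM1 knockout libraries and 1, 0 and 0 counts in NFIB mutant libraries. All libraries were thus at or under the limit of 3 counts, and no difference was detectable at this depth. Chromatin at its start, in contrast, was open in TKO. The peak over the gene's start (chr6:64728594-64730216, Atoh1 peak 2) had 13.4, 17.5 and 7.73 CPM in TKO, 0.878, 0.518 and 1.28 in the CARM1 knockouts and 0.837, 0.842 and 0.785 in the NFIB mutants. Every TKO library lay above every mutant library, and CARM1 knockout replicate 3 was low like the others. The log2 fold changes were -3.85 (SE 0.49, adjusted p = 0.000146) and -3.97 (SE 0.49, adjusted p = 0.000113). Both other peaks of this window were called lower in each mutant too. The one 1.09 kb before the start (chr6:64727747-64728320) had 1.91, 2.84 and 1.52 CPM in TKO, 0.310, 0.288 and 0.919 in the CARM1 knockouts and 0.299, 0 and 0.314 in the NFIB mutants. Its call in the CARM1 knockouts (-2.05, adjusted p = 0.0559) was lost under total counts (-1.42), under start-site scaling (-1.66) and without TKO replicate 2 (-1.76), CARM1 knockout replicate 1 (-1.79) or CARM1 knockout replicate 2 (-1.75). The promoter of Atoh1 lies within peak 2 and is shown as a promoter that was accessible while RNA was at or under the limit (GRCm38.p6, chr6:64728875-64729174, plus strand), with the same capitals.
Atoh1: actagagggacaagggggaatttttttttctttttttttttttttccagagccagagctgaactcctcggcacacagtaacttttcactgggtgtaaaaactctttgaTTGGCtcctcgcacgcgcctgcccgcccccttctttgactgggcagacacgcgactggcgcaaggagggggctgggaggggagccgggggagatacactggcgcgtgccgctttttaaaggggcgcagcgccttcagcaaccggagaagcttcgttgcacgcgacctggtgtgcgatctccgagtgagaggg
It held 1 NFI site and no E-box.

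Of 14 genes that work with ATOH1 in hair cells or Merkel cells, 10 were tested. Among the CARM1 knockouts 2 were called higher and 2 lower, and in the NFIB mutants 2 higher and 4 lower, with median log2 fold changes of -0.61 and -1.29. Of all genes tested, 20.5 and 18.3% and 22.3 and 23.5% were called in these directions, so with 10 genes the list is not set apart. With each library left out in turn these counts were 1 to 3, 2 to 4, 0 to 3 and 3 to 6, and under total counts 2, 2, 1 and 5. In the CARM1 knockouts 1 was higher without TKO replicate 2, and 4 were lower without CARM1 knockout replicate 3 or NFIB mutant replicate 3. Among the NFIB mutants 1 was higher without TKO replicate 1 or 2 and 0 without NFIB mutant replicate 1 or 2. These were the NFIB mutant libraries with most Krt8, a simple epithelial keratin. Over all libraries together Krt8 was the list's most abundant gene, mainly through 442 CPM in NFIB mutant replicate 1 and 232 CPM in CARM1 knockout replicate 3. In TKO it had 0.0437 to 3.22 CPM. Pou4f3, a hair cell factor, had 4.18, 1.84 and 1.86 CPM in TKO and a single count in CARM1 knockout replicate 3 and in NFIB mutant replicate 1. Hes6, an inhibitor of HES1, had 78.4, 132 and 80.7 CPM in TKO, 21.1, 24.1 and 39.5 in the CARM1 knockouts and 32.0, 12.3 and 23.8 in the NFIB mutants. For both genes the TKO libraries lay above all 6 mutant libraries, and both were called lower in each mutant.

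Insm1 (ENSMUSG00000068154, chr2:146221921-146225020, plus strand) codes for a zinc finger repressor that neuroendocrine cells need to mature. It had 257, 326 and 254 CPM in TKO, 0, 4.43 and 83.9 in the CARM1 knockouts and 0.790, 0.432 and 0 in the NFIB mutants. All mutant libraries lay below all TKO libraries, yet CARM1 knockout tumors spread from no count at all to 83.9 CPM in replicate 3, the tumor that kept Chga. Group means were 279 ± 41.2 CPM in TKO, 29.5 ± 47.2 in the CARM1 knockouts and 0.407 ± 0.396 in the NFIB mutants (SD, n = 3 each). In the NFIB mutants Insm1 was 685-fold lower (log2 fold change -9.39, SE 2.31, adjusted p = 0.0147), and the log2 fold change was -10.27 without NFIB mutant replicate 1. Among the CARM1 knockouts the log2 fold change was -3.24 (SE 1.69, adjusted p = 0.164) and it was not called. Without CARM1 knockout replicate 3 it was -6.91 with an adjusted p of 0.0191, and without CARM1 knockout replicate 1 it was -2.65.

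Accessibility around Insm1 fell in every tumor of both mutants. The peak over the start (chr2:146220499-146224287, Insm1 peak 4) had 92.0, 101 and 95.3 CPM in TKO, 7.54, 11.9 and 21.2 in the CARM1 knockouts and 8.76, 4.69 and 4.16 in the NFIB mutants. TKO libraries stood far above the rest, with CARM1 knockout replicate 3 the highest mutant. The log2 fold changes were -2.83 (SE 0.37, adjusted p = 0.000185) and -4.04 (SE 0.40, adjusted p = 3.58e-05), so that this peak was called where the RNA in the CARM1 knockouts was not. Summed over its 14 peaks, the window held 168, 189 and 149 CPM in TKO, 23.4, 20.4 and 40.0 in the CARM1 knockouts and 21.5, 20.1 and 10.03 in the NFIB mutants. In each mutant 13 of the 14 peaks were called lower and 1 higher, with median log2 fold changes of -2.74 and -2.88, where 32.4 and 34.0% of all peaks were lower. The only rise (chr2:146272239-146273106, in an intron of Ralgapa2) went from 0.371 to 0.701 CPM in TKO to 1.29 to 7.36 CPM in the mutants (log2 fold changes 2.79 and 2.83). It was 2.03 without CARM1 knockout replicate 1 and 2.20 without NFIB mutant replicate 2. Ralgapa2, whose introns hold 7 of these peaks, averaged 61.1, 31.1 and 37.4 CPM in TKO, CARM1 knockout and NFIB mutant tumors and was called lower in the CARM1 knockouts.

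Among the peaks called in both mutants with 1 CPM or more, the largest mean fall near Insm1 was 6.87 kb after the start (chr2:146228286-146229299, Insm1 peak 7). It had 3.44, 3.99 and 5.37 CPM in TKO, 0.413, 0.211 and 0.266 in the CARM1 knockouts and 0.478, 0.337 and 0.0589 in the NFIB mutants. Here CARM1 knockout replicate 3 was as low as the other mutants, unlike its Insm1 RNA. The log2 fold changes were -3.84 (adjusted p = 0.000914) and -3.89 (adjusted p = 0.000794). Its central 300 bases are shown as the site of that fall (GRCm38.p6, chr2:146228643-146228942, plus strand), with the same capitals.
Insm1 peak 7: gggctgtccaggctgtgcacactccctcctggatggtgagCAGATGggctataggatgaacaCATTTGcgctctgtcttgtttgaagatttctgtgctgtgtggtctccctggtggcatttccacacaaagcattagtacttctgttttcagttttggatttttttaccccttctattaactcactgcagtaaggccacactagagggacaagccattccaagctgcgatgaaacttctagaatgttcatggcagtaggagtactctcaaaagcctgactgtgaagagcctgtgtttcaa
They held 2 E-boxes and no NFI site. Of the central 300 bases of all 111664 peaks, 81.6% held an E-box and 50.6% the NFI site.

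Of 15 endocrine factors that act with or beside INSM1, 11 were tested. In the CARM1 knockouts 3 were called lower, in the NFIB mutants 6, and none higher (1 in the NFIB mutants without TKO replicate 3), where 18.3 and 23.5% of all genes were lower, with medians of -3.03 and -4.61 (-4.01 with Insm2 at its bound). Without CARM1 knockout replicate 3 the count was 5, it was 1 without TKO replicate 3, and 0 without TKO replicate 1 or 2 or CARM1 knockout replicate 1 or 2. Among the NFIB mutants it was 4 to 7. Myt1l, a neuronal zinc finger factor, had 98.8, 98.7 and 98.9 CPM in TKO, 0, 0 and 12.3 in the CARM1 knockouts and 0.304, 0 and 0 in the NFIB mutants. Insm2, the paralogue of Insm1, had 2.4, 1.62 and 0.487 CPM in TKO, and among the mutants only CARM1 knockout replicate 3 had counts (0.281 CPM). In both genes TKO lay above every mutant library, and the calls in the CARM1 knockouts were lost in 8 (Myt1l) and 4 (Insm2) of 9 fits with a library left out. Nkx2-1, the lung lineage factor and the most abundant of the list, had 601, 386 and 236 CPM in TKO, 0.339, 47.9 and 102 in the CARM1 knockouts and 70.5, 5.30 and 0.191 in the NFIB mutants and was not called in either mutant. The genes most like Insm1 over the 9 libraries were Tub, Pcsk1n and Nefh (0.629, 0.753 and 0.812 among 11480 candidates). Tub had 282, 200 and 94.2 CPM in TKO, 0, 5.42 and 34.8 in the CARM1 knockouts and 1.03, 0.247 and 0 in the NFIB mutants.

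Pou2f3 (ENSMUSG00000032015, chr9:43123939-43210369, minus strand) codes for the POU factor that tuft cells depend on. It had 1, 4 and 15 counts in TKO, 0, 0 and 2 counts in the CARM1 knockouts and 0, 0 and 1 count in NFIB mutant libraries, too few for the test. TKO replicates 2 and 3 lay above the limit of 3 counts, and no mutant library did. Trpm5, a channel that defines tuft cells, had 0 to 0.432 CPM in TKO and 0.0562 to 1.08 CPM in the mutants. The defining tuft cell genes were thus at or near 0 in all 9 libraries. The peak over the main start of Pou2f3 (chr9:43209940-43211598, Pou2f3 peak 12) had 2.39, 1.48 and 1.73 CPM in TKO, 7.44, 5.36 and 6.84 in the CARM1 knockouts and 8.04, 12.2 and 5.79 in the NFIB mutants. All mutant libraries lay above all TKO libraries, while the RNA stayed near 0. Its log2 fold changes were 1.81 (SE 0.40, adjusted p = 0.00293) and 2.21 (SE 0.41, adjusted p = 0.000971).

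The window of Pou2f3 held 22 peaks and several other genes. Among the CARM1 knockouts 13 were called higher and 3 lower, and in the NFIB mutants 12 and 3, next to 38.7 and 32.4% and 39.3 and 34.0% of all peaks. The largest mean fall among those called in both mutants covered the start of Tmem136, a neighbour of Pou2f3 (chr9:43115823-43116943). It had 20.6, 21.6 and 20.5 CPM in TKO and 1.31 to 2.98 CPM in the mutants (log2 fold changes -3.52 and -3.25, adjusted p = 5.89e-05 and 7.09e-05). The RNA of Tmem136 fell with it, from a mean of 24.7 CPM in TKO to 0.129 and 0.225 CPM. Among peaks called in both mutants with 1 CPM or more, the largest mean rise lay 31.6 kb before the start of Pou2f3, nearer to Oaf (chr9:43241226-43242640, Pou2f3 peak 20). It had 0.606, 0.433 and 0.676 CPM in TKO, 3.59, 3.30 and 2.35 in the CARM1 knockouts and 6.16, 6.42 and 8.44 in the NFIB mutants (log2 fold changes 2.43 and 3.61, adjusted p = 0.000695 and 8.94e-05). The 3 genotypes did not overlap at this peak. Oaf RNA averaged 1.40 CPM in TKO and 110 and 179 CPM in the mutants and was called higher in each.

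The tuft cell list of 16 genes had 9 tested, of which 4 were called higher in each mutant and none lower, with median log2 fold changes of 0.28 and 0.15, next to 20.5 and 18.3% and 22.3 and 23.5% of all genes. With 9 genes the list is not set apart from these shares. With each library left out the number higher was 2 to 4 in either mutant, and it was 2 without CARM1 knockout replicate 1 or 3 or TKO replicate 2 in the CARM1 knockouts, and without NFIB mutant replicate 2 or TKO replicate 1 or 3 in the NFIB mutants. The number lower was 1 without TKO replicate 1 in either mutant, 1 in the NFIB mutants without TKO replicate 2 or any CARM1 knockout library, and 1 in each mutant under total counts. The list summed to 200, 156 and 244 CPM in TKO, 492, 331 and 346 in the CARM1 knockouts and 694, 792 and 471 in the NFIB mutants. Ptgs1 (cyclooxygenase 1), its most abundant gene, had 0.673, 4.37 and 0.0443 CPM in TKO, 319, 218 and 125 in the CARM1 knockouts and 489, 595 and 315 in the NFIB mutants. Alox5ap, of leukotriene synthesis, had 0 to 0.144 CPM in TKO, 8.34, 1.98 and 19.6 in the CARM1 knockouts and 0.790, 21.5 and 0.826 in the NFIB mutants. Both genes are also made outside tuft cells, Ptgs1 in many tissues and Alox5ap in myeloid cells, whose markers varied among the same libraries. Ptprc, Lyz2 and Alox5ap were each highest in replicate 3 of the CARM1 knockout tumors. Of the NFIB mutants, replicate 2 was highest for Ptprc and Alox5ap, and replicate 1 for Lyz2 (404, 96.2 and 0.953 CPM).

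Rest (ENSMUSG00000029249, chr5:77265491-77286432, plus strand) codes for the zinc finger repressor of neuronal genes. It had 4.18, 6.69 and 5.63 CPM in TKO, 60.1, 60.5 and 50.1 in the CARM1 knockouts and 57.5, 63.9 and 47.3 in the NFIB mutants. The TKO libraries were low and alike, and all 6 mutant libraries were high and alike, with CARM1 knockout replicate 3 among them although it kept neuroendocrine RNA. Group means were 5.50 ± 1.26, 56.9 ± 5.94 and 56.2 ± 8.37 CPM (SD, n = 3 each). Rest was 10.3-fold higher in the CARM1 knockouts (log2 fold change 3.37, SE 0.24, adjusted p = 0.000331) and 10.2-fold higher in the NFIB mutants (3.35, SE 0.24, adjusted p = 0.000257). Over the alternative settings the log2 fold changes ranged from 3.10 to 3.54 and from 3.03 to 3.52.

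Chromatin at Rest opened further. The peak over its starts (chr5:77264716-77267241, Rest peak 5) had 13, 12.7 and 25.5 CPM in TKO, 37.4, 51.9 and 36.4 in the CARM1 knockouts and 36.9, 47.3 and 32.0 in the NFIB mutants. TKO replicate 3 was the highest of its group and still below all mutants. The log2 fold changes of 1.30 (SE 0.28, adjusted p = 0.00266) and 1.18 (SE 0.28, adjusted p = 0.00397) were smaller than those of the RNA. In the window of 8 peaks, 5 were called higher in each mutant, 0 lower in the CARM1 knockouts and 1 lower in the NFIB mutants, at the shared start of Noa1 and Polr2b, where 38.7 and 39.3% of all peaks were higher. Of these calls, that of Rest peak 3 in the NFIB mutants (log2 fold change 1.52) was lost in 3 fits. These were without TKO replicate 1 (1.39) or 2 (1.09) or NFIB mutant replicate 1 (1.36). The largest mean rise lay 13.2 kb before the start (chr5:77251602-77253039, Rest peak 4). This peak had 0.574, 0.340 and 0.972 CPM in TKO, 16.4, 7.97 and 6.46 in the CARM1 knockouts and 8.22, 6.21 and 15.1 in the NFIB mutants. Every mutant library was several times above the highest TKO library. Its log2 fold changes were 4.04 (SE 0.58, adjusted p = 0.000295) and 3.98 (SE 0.58, adjusted p = 0.000275). The neighbours Noa1 and Polr2b were not called in either mutant, with means of 44.3, 52.2 and 35.0 CPM and 168, 164 and 143 CPM. The central 300 bases of peak 4 are shown as the site of the largest rise next to the regulator that rose (GRCm38.p6, chr5:77252171-77252470, plus strand), with the same capitals.
Rest peak 4: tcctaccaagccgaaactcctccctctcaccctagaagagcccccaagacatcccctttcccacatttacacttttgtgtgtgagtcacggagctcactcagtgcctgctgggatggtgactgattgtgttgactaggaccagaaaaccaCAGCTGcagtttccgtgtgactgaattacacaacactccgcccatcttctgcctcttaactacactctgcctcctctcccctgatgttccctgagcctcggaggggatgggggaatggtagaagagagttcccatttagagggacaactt
They held 1 E-box and no NFI site. Both parts of the RE1 element that REST itself recognises, CAGCACC and GGACAG, were without a match there.

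REST works through corepressors and is itself controlled by splicing and by protein turnover. All 15 such genes were tested, of which 3 were called higher and 7 lower in the CARM1 knockouts and 1 higher and 5 lower in the NFIB mutants, with medians of -0.58 and -0.71. Of all genes 20.5 and 18.3% and 22.3 and 23.5% were called in these directions, and only the 7 lower lay well above their share, a count that moved with single libraries. With each library left out, 2 to 6 were lower in the CARM1 knockouts (2 without CARM1 knockout replicate 1, 3 without CARM1 knockout replicate 2 or TKO replicate 2, 4 without TKO replicate 1 or 3), where 1 was higher without CARM1 knockout replicate 2, and 5 to 7 in the NFIB mutants. Under total counts 1 was higher and 8 lower in each mutant. Ehmt2, a histone methyltransferase, was the most abundant gene and was not called. Srrm3 and Srrm4, splicing factors that turn REST off in neurons, were lower in each mutant. Srrm3 had 91.9, 87.3 and 82.7 CPM in TKO, 0.0678, 0.175 and 15 in the CARM1 knockouts and 0.304, 0 and 0 in the NFIB mutants. Srrm4 had 34.6, 57.6 and 66.9 CPM, then 3.80, 0.875 and 17.1 CPM, then 0.243, 1.36 and 0.127 CPM. CARM1 knockout replicate 3 was the highest mutant library for both, and leaving out single libraries ended their calls in the CARM1 knockouts in 8 and 5 of 9 fits. Ctdsp1, a phosphatase that stabilises REST, had 91.8, 96.5 and 39.0 CPM in TKO, 188, 161 and 167 in the CARM1 knockouts and 203, 236 and 218 in the NFIB mutants, all mutants above all TKO, and was called higher in each.

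The 20 neuronal genes that REST is known to repress showed where CARM1 knockout replicate 3 differed. They summed to 1906, 1763 and 4681 CPM in TKO, 49.6, 49.3 and 1025 in the CARM1 knockouts and 67.1, 108 and 41.4 in the NFIB mutants. Replicate 3 thus held 1025 CPM of these genes at 50.1 CPM of Rest, next to 49.3 to 49.6 CPM at 60.1 and 60.5 CPM of Rest in the other CARM1 knockout tumors. Of 19 tested, 1 was called higher and 4 lower in the CARM1 knockouts and 0 higher (1 without TKO replicate 3) and 15 lower in the NFIB mutants, with medians of -2.77 and -6.84. Of all genes 18.3 and 23.5% were lower, so the CARM1 knockout count is near that share and the NFIB mutant count above it. Without CARM1 knockout replicate 3 the number lower in the CARM1 knockouts was 15, it was 2 without any TKO library or without CARM1 knockout replicate 1 or 2, and 3 or 4 otherwise. Gria2, a glutamate receptor subunit, was low in replicate 3 as well, with 133, 155 and 223 CPM in TKO, 0, 0 and 0.281 in the CARM1 knockouts and 0.182, 0.0616 and 0 in the NFIB mutants. The 1 gene called higher was Bdnf, a neurotrophin, at 1.92, 0.831 and 9.66 CPM in TKO and 12.8 to 22.4 CPM in the CARM1 knockouts, a call kept without TKO replicate 3 and lost without any other library and under total counts. This list shares 6 genes with the neuroendocrine list. The genes most like Rest over the 9 libraries were Lpp, Fkbp9 and Plekho2 (0.276, 0.277 and 0.284 among 11480 candidates). Lpp had 22.4, 28.6 and 24.7 CPM in TKO, 327, 222 and 217 in the CARM1 knockouts and 188, 213 and 263 in the NFIB mutants.

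Hes1 (ENSMUSG00000022528, chr16:30064384-30067796, plus strand) codes for a basic helix-loop-helix repressor. It had 6.87, 47.3 and 5.80 CPM in TKO, 7.93, 22.2 and 24.1 in the CARM1 knockouts and 23.0, 5.12 and 10.8 in the NFIB mutants. TKO replicate 2, which also led for Neurod1, was the highest of all 9, and the 3 genotypes overlapped throughout. The log2 fold changes of -0.14 (SE 0.92, adjusted p = 0.914) and -0.62 (SE 0.92, adjusted p = 0.601) were not called. They were 1.51 and 1.03 without TKO replicate 2 and 0.22 in the CARM1 knockouts without CARM1 knockout replicate 1, so no direction holds for Hes1. The peak over the gene (chr16:30062413-30067632, Hes1 peak 12) had 46.6, 62.2 and 58.9 CPM in TKO, 48.2, 73.3 and 70.2 in the CARM1 knockouts and 51.5, 58.5 and 67.6 in the NFIB mutants. The groups overlapped here as well, and the log2 fold changes of 0.19 and 0.08 (adjusted p = 0.374 and 0.701) were not called. Scaling decided this, since the peak was called higher under total counts (0.78 and 0.66) and under start-site scaling (0.58 and 0.55), shifts that match those of the median of all peaks.

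The window of Hes1 held calls outside the start. Of 17 peaks, all with Hes1 as the nearest coding start, 7 were called higher and 1 lower in the CARM1 knockouts and 7 and 2 in the NFIB mutants, next to 38.7 and 32.4% and 39.3 and 34.0% of all peaks, so the share higher was near that of all peaks. The 1 lower became 2 without CARM1 knockout replicate 2 or 3, and the 2 became 1 without TKO replicate 2 or NFIB mutant replicate 3. Without NFIB mutant replicate 1 Hes1 peak 11 was lower in the NFIB mutants too. Calls higher in the CARM1 knockouts were lost for peaks 1, 5 and 7 without TKO replicate 2. Peak 7 was also lost without TKO replicate 3, CARM1 knockout replicate 2 or 3 or NFIB mutant replicate 1 or 2. In the NFIB mutants peaks 9 and 13 were each lost in some such fits. Peaks 4 and 13 became higher in the CARM1 knockouts in some fits, and peak 16 in the NFIB mutants. The largest mean rise lay 47.2 kb after the start (chr16:30110980-30112173, Hes1 peak 17), at 0.446, 0.340 and 0.634 CPM in TKO, 2.84, 6.20 and 11.5 in the CARM1 knockouts and 7.62, 2.57 and 13 in the NFIB mutants. The largest mean fall lay 7.22 kb before it (chr16:30056733-30057599, Hes1 peak 8), at 7.75, 5.69 and 7.94 CPM in TKO, 1.32, 2.61 and 2.88 in the CARM1 knockouts and 2.90, 0.866 and 1.90 in the NFIB mutants. Neither peak had overlapping TKO and mutant libraries. Their log2 fold changes were 3.86 and 4.03 for the rise (3.27 without CARM1 knockout replicate 3 and 3.44 without NFIB mutant replicate 3) and -1.65 and -1.92 for the fall. Of 15 HES and HEY relatives and Groucho corepressors, 9 were tested, with 1 higher and 2 lower in each mutant and medians of -0.44 and -0.57, which with 9 genes is not set apart from the same shares of all genes. With a library left out 2 to 3 were lower in the CARM1 knockouts and 2 to 4 in the NFIB mutants, and 4 without TKO replicate 3, CARM1 knockout replicate 1 or 2 or NFIB mutant replicate 1, or under total counts. The 2 lower were Hes6 and Hey1. Hey1, another Notch target, had 40.6, 31.8 and 46.4 CPM in TKO, 1.02, 1.52 and 8.71 in the CARM1 knockouts and 2.19, 0.432 and 0.445 in the NFIB mutants. Rbpj, the DNA-binding partner of Notch, was higher, with 125, 111 and 97.4 CPM, then 301, 255 and 217 CPM, then 208, 486 and 197 CPM. For Hey1 and Rbpj no mutant library overlapped TKO. Tle5 was the most abundant of this list, at 361 to 724 CPM over all libraries, and was not called. The genes most like Hes1 were Tmtc4, Cacna2d1 and Xrcc5 (0.662, 0.672 and 0.697 among 11480 candidates).

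Over all 69 peaks of the 6 windows, 27 were called higher and 21 lower in the CARM1 knockouts, where 38.7% of all peaks tested were higher and 32.4% lower. In the NFIB mutants 27 were higher and 24 lower, against 39.3 and 34.0%. The total was thus near the background, and the windows differed in direction. Insm1 and Atoh1 had 13 of 14 and 3 of 3 peaks lower in each mutant, and Rest 5 of 8 higher. The nearest coding start belonged to the regulator itself for 33 of the 69 peaks. Within 10000 bp of the genes, 25 peaks remained, of which 4 were higher and 14 lower in the CARM1 knockouts and 5 and 15 in the NFIB mutants. An E-box was found in the centre of 59 of the 69 peaks and an NFI site in 33, shares of 85.5 and 47.8% next to 81.6 and 50.6% of all peaks. Of the peaks named for a large change, Hes1 peak 8 held 3 NFI sites, Pou2f3 peak 7 held 2, Hes1 peak 17 and Neurod1 peak 3 held 1 each, and Pou2f3 peak 20, Atoh1 peak 2, Insm1 peaks 7 and 14 and Rest peak 4 held none. The other letters searched, on both strands, were the N-box CACNAG in 37 of the 69 (48.5% of all peaks), the octamer ATGCAAAT in 1 (1.43%), the RE1 parts CAGCACC in 4 (7.44%) and GGACAG in 25 (24.3%) and the RBPJ site GTGGGAA in 5 (6.96%). The paired NFI site, which contains the NFI site, and the RE1 parts joined in their usual spacing were found in 0 of the 69 and in 0.10 and 0.0215% of all peaks. RefSeq promoter sequences were held for Neurod1 and Atoh1, and not for Pou2f3, Insm1, Rest and Hes1.

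**Figure D3:**
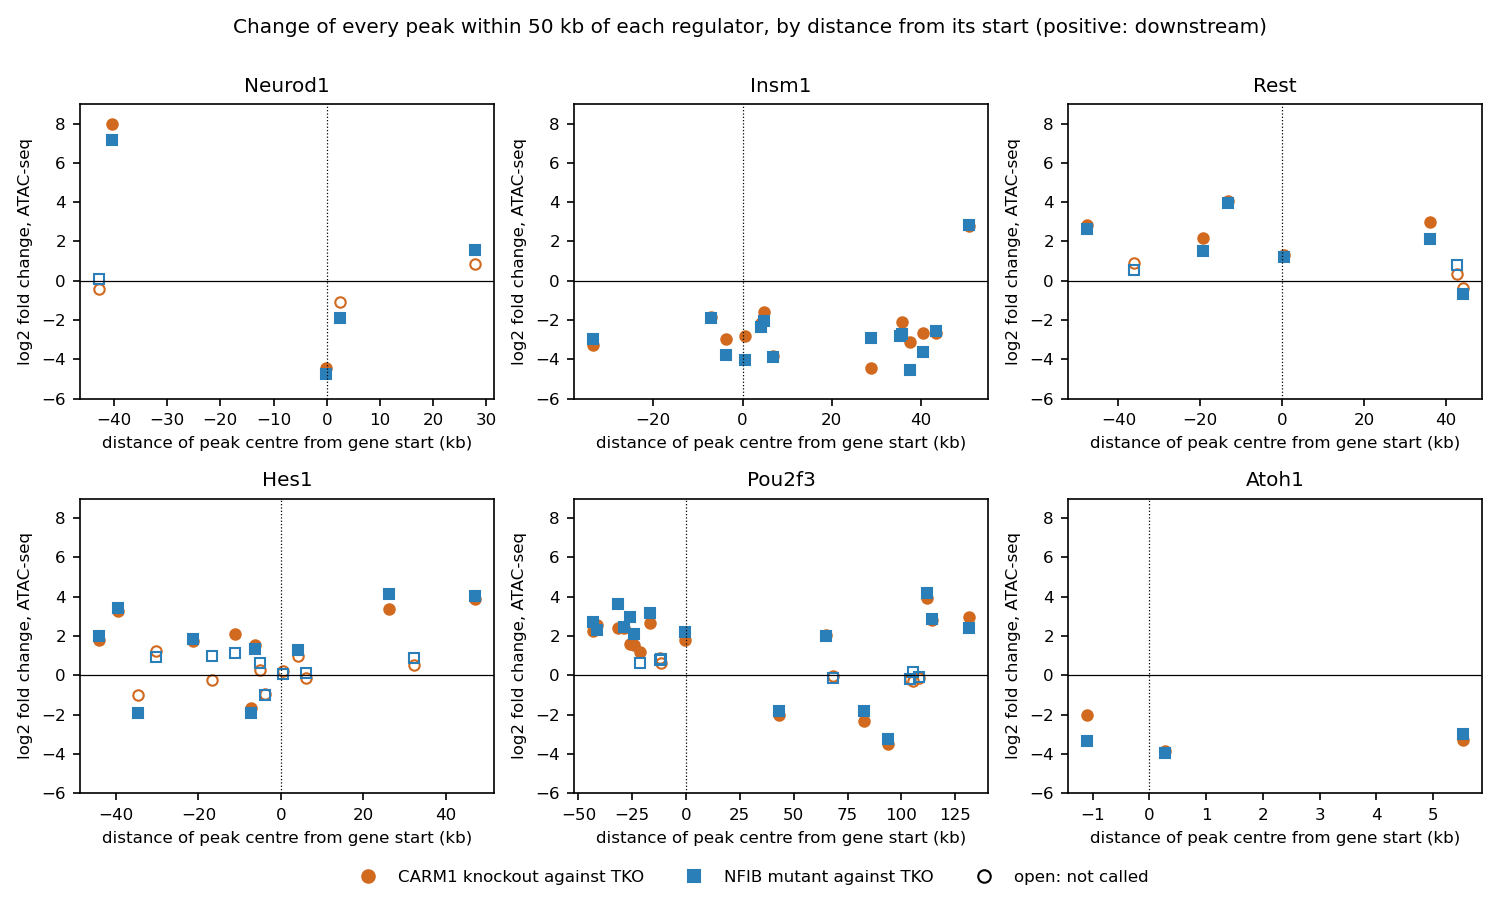
Log2 fold change of every ATAC-seq peak within 50 kb of each regulator (vertical axis) by the distance of its centre from the regulator's start in kb, positive downstream, with circles for CARM1 knockout and squares for NFIB mutant tumors against TKO and open symbols where not called. Around Insm1 13 of 14 peaks lie below 0 in each mutant and around Atoh1 3 of 3, while the peak at the start of Hes1 lies at 0.19 and 0.08.

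**Figure D4:**
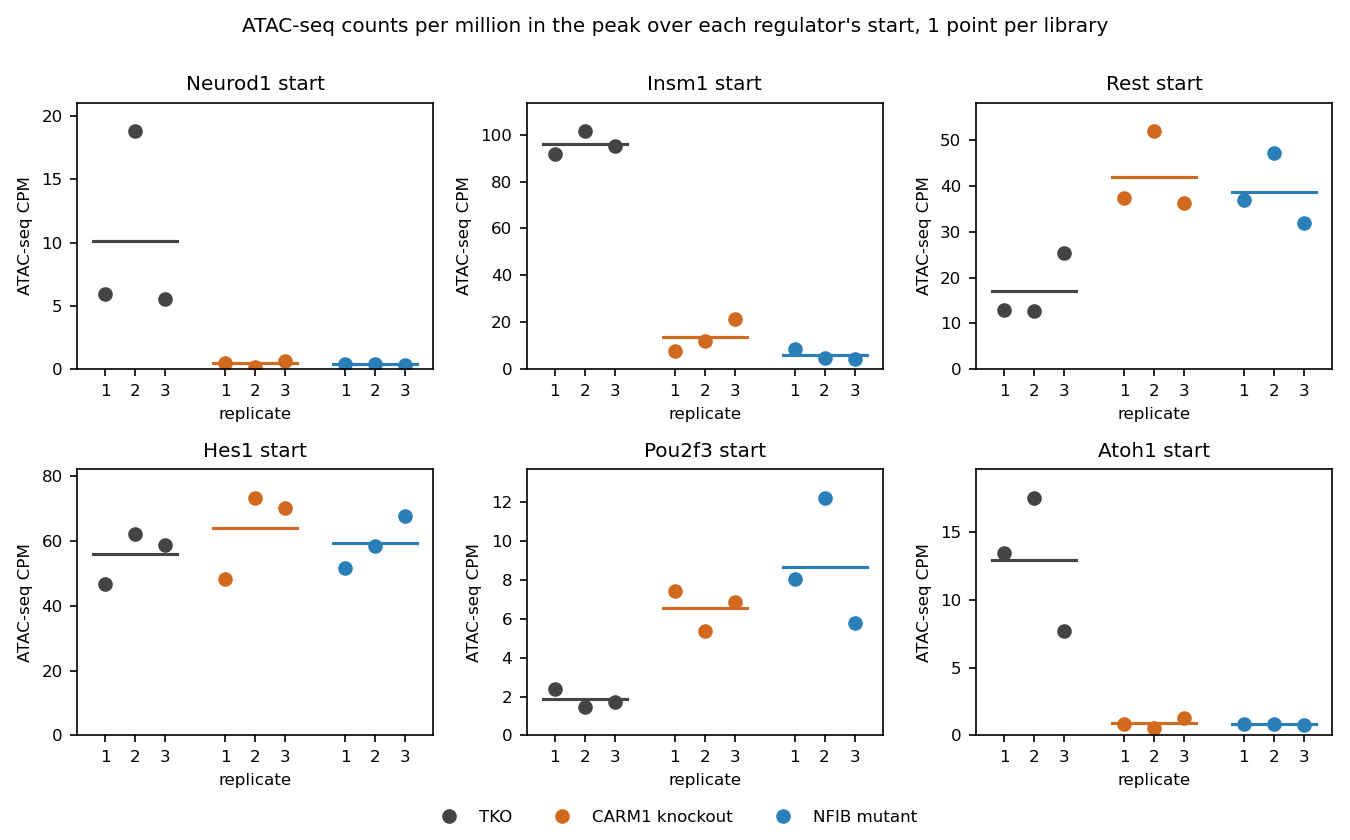
ATAC-seq CPM at the start of each regulator, with 1 point per library by genotype and replicate number and a line at the mean of the 3 libraries. The start peaks of Neurod1, Atoh1 and Insm1 are lower in all 6 mutant libraries than in TKO, those of Rest and Pou2f3 are higher, and that of Hes1 overlaps between genotypes under the TMM scaling shown, where other scalings raise it.

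The mutants were also compared with each other. Of the 4 regulators tested, edgeR called 0 between CARM1 knockout and NFIB mutant tumors, where 0% of all genes were called, and 1 (Insm1) had an unadjusted p under 0.05. DESeq2 called 0 of them and 454 of all genes. Insm1 had a log2 fold change of 6.14 (SE 2.06, adjusted p = 0.524), which rests on the 83.9 CPM of replicate 3 and the 4.43 CPM of replicate 2 of the CARM1 knockout tumors. Rest differed by 0.02 (SE 0.22, adjusted p = 0.992), less than its spread within either genotype, and Hes1 by 0.48 (SE 0.92, adjusted p = 0.923). Of the 69 peaks, edgeR called 0, where 0% of all peaks were called, 4 had an unadjusted p under 0.05, and DESeq2 called 1 and 1077 of all peaks. That 1 was Pou2f3 peak 20, with less signal in the CARM1 knockouts than in the NFIB mutants (log2 fold change -1.21 and adjusted p = 0.0504 with DESeq2, and -1.19 and 0.693 with edgeR). At an unadjusted p under 0.05 there were 1414 genes and 6813 peaks in all.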

How the data were processed

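RNA-seq and ATAC-seq were measured in 9 libraries each, 3 per genotype. The deposited RNA-seq table holds read counts per gene that the authors made with htseq-count, and the deposited peak table holds read counts per peak that the authors made, per the file headers with featureCounts 1.6.3 counting single reads. The study's Methods name bedtools multicov for this step, and name MACS2 where the labels name Genrich as peak caller. Columns were matched to genotypes by the letters C, KO and N of their headers, read as TKO, CARM1 knockout and NFIB mutant because the figure legends of the study use the words control, CARM1 knockout and NFIB mutant. This is an inference that no label states, and replicate numbers were matched to those of the titles. All columns were used. The 5 summary lines of htseq-count were left out of the gene table. They show 3.65 to 12.2% of reads outside genes (12.2, 10.0 and 11.0% in TKO), 3.84 to 4.50% ambiguous and 3.18 to 6.31% not uniquely placed. The 10 largest peaks held 13.5 to 32.6% of the ATAC-seq counts. Of 46078 genes, 45143 were found in GENCODE M21 (GRCm38), which gave positions and exon lengths for TPM.

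Counts were scaled by TMM and tested with edgeR 4.0.16 (quasi-likelihood, robust, 1 fit of all 9 libraries per assay, filterByExpr as low-count filter) in R 4.3.3 with limma 3.58.1, and all adjusted p values are Benjamini-Hochberg adjusted. Comparisons were CARM1 knockout with TKO, NFIB mutant with TKO, and the mutants with each other. Alternatives were DESeq2 1.42.0, other scalings and filters, a fit of 6 libraries, a replicate block, a stricter threshold, a window of 10000 bp and each library left out. The procedure was tested on simulated data. Tables, sequences and figures used Python 3.11.15, pandas 2.3.3, numpy 2.4.6, pysam 0.24.0 and matplotlib 3.10.9. The regulators and 13 gene lists were chosen with earlier results of these data known, though not by their values. Lists are named in the report with their results, of which some for single genes are not reported here, and 6 of the 15 neuroendocrine genes are in another list. Of each list up to 2 genes per direction called in both mutants were named by rule, and further genes for their role. Peaks were named at the start of each regulator and for the largest mean change in each direction among peaks called in both mutants with at least 1 CPM.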

Additional observations from a re-analysis of the deposited data

How the results depend on the processing

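Rest, Neurod1, Neurod1 peak 3, Atoh1 peak 2, Insm1 peak 4, Rest peak 5 and Pou2f3 peak 12 kept their calls and direction in both mutants under every setting in which they were tested. With at least 10 counts in every library Neurod1 and Insm1 were not tested, which left 1 regulator called in the CARM1 knockouts and 1 in the NFIB mutants, 4520 of 10947 genes called in NFIB mutant tumors, 38831 and 40676 of 65496 peaks, and 28 and 31 of 43 window peaks. DESeq2 gave no adjusted p for Insm1. Windows of 10000 bp held 18 and 20 called peaks of 25, next to 78985 and 81432 of all 111116 peaks tested.

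Between the mutants, DESeq2 called 454 genes, 1077 peaks and 1 window peak. The filter of 10 counts gave 5 genes and 8 peaks, total counts 7 peaks and a fit of 6 libraries 16 peaks. Leaving out a library gave 0 to 2 genes and 0 to 50 peaks. Their log2 fold changes crossed 0 with a library left out for Rest (-0.094 to 0.12), Neurod1 peak 3 (-0.11 to 0.64), Pou2f3 peak 7 (-0.47 to 0.015), Atoh1 peak 2 (-0.24 to 0.39), Insm1 peak 7 (-0.46 to 0.60, and -0.011 under start-site scaling), Insm1 peak 14 (-0.81 to 0.58), Rest peak 4 (-0.45 to 0.51), Rest peak 5 (-0.071 to 0.28), Hes1 peak 8 (-0.084 to 0.71), Hes1 peak 12 (-0.000987 to 0.28) and Hes1 peak 17 (-0.77 to 0.43).

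Against TKO, Hes1 ranged from -0.55 to 1.51 in the CARM1 knockouts and from -1.32 to 1.03 in the NFIB mutants with a library left out. Hes1 peak 12 ranged from -0.032 to 0.18 in NFIB mutant tumors and was -0.065 with DESeq2 and -0.065 with DESeq2 size factors in edgeR.

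With the replicate number as a replicate block, 5485 and 6508 genes, 2 and 3 regulators, 76648 and 79377 peaks and 48 and 50 window peaks were called, and 0 between the mutants. Hes1 was 0.22 in CARM1 knockout tumors. Deviations from group means correlated by -0.297 to 0.118 in RNA-seq and -0.142 to 0.118 in ATAC-seq between libraries of the same number. Between different numbers the ranges were -0.137 to 0.187 and -0.111 to 0.124. The lowest RNA-seq values were those of same-numbered CARM1 knockout and NFIB mutant libraries (-0.297, -0.199 and -0.168). Deviations in a group of 3 sum to 0, so these values cannot decide whether the numbers pair the libraries.

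With 3 libraries per genotype, single tumors decide several calls, as CARM1 knockout replicate 3 does for Insm1. Bulk libraries do not separate cell types, and whether tumors were sorted or biopsied is stated both ways.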
